A study of Homo sapiens with 6 samples.

Results

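The aldehyde dehydrogenases described here are 10 genes (ALDH1A1, ALDH1A2, ALDH1A3, ALDH1B1, ALDH2, ALDH3A1, ALDH3A2, ALDH3B1, ALDH7A1 and ALDH9A1) of the 64253 rows of the deposited table. They were taken by gene name from the rows on the main chromosomes, out of 19 genes of the human family. The set was chosen by earlier sight of the counts of TGF-beta against vehicle cells, so the difference between conditions is a description for these 10 genes, with no p-value, and supports nothing by itself. RNA was sequenced from H69, an immortalised human cell line from bile duct epithelium (cholangiocytes), at passages 30 to 32. The TGF-beta group had 3 libraries from cells treated for 16 h with 10 ng/ml of the recombinant human protein, and the vehicle group had 3 libraries from the same line given vehicle. All 6 libraries come from this line alone, and nothing in the labels says that the replicates were separate cultures, so errors and p-values cover only how far these libraries vary, possibly for technical reasons.

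Aldehyde dehydrogenases oxidise aldehydes to carboxylic acids with NAD or NADP. The ALDH1A enzymes make retinoic acid from retinaldehyde, the ALDH2 and ALDH1B1 enzymes work in mitochondria on acetaldehyde and other small aldehydes, and the ALDH3 enzymes act on fatty, aromatic and lipid peroxidation aldehydes. ALDH7A1 acts in lysine breakdown and ALDH9A1 on amino aldehydes such as those from polyamines and carnitine synthesis. In liver and bile ducts the family is known for ethanol metabolism, clearance of toxic aldehydes and retinoid supply.

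RefSeq start sites were matched for 8 of the 10 genes, but not for ALDH3A1 and ALDH2. Bases that lie inside the gene as the deposited table places it were left out. Promoter sequences are shown for ALDH3A2, ALDH3B1 and ALDH1B1, the matched genes with most of the 250 bases before a start outside the gene. Availability set this choice, so no comparison of lower with even members is drawn from them. Capitals mark each CpG, the dinucleotide at which DNA is methylated. The ALDH3A2 sequence is GRCh38.p14 chr17:19647886-19648135, the ALDH3B1 sequence chr11:68008297-68008546 and the ALDH1B1 sequence chr9:38392452-38392663, all on the plus strand and read 5′ to 3′.
ALDH3A2: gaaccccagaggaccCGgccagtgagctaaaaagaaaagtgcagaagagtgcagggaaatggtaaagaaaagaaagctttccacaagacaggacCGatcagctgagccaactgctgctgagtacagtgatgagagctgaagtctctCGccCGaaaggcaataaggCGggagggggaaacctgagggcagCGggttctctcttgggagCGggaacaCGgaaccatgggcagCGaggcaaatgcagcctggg
ALDH3B1: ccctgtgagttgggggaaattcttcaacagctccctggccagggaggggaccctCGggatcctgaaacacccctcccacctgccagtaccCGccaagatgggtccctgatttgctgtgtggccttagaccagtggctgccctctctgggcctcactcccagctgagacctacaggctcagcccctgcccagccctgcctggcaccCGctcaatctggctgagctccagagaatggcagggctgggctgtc
ALDH1B1: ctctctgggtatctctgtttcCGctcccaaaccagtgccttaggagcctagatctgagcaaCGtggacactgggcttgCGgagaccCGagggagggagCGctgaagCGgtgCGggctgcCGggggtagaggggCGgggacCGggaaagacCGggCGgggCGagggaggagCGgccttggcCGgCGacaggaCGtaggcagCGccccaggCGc
The ALDH3B1 stretch held 3 CpG sites in 250 bases and the ALDH3A2 stretch 9 in 250 bases, which is 1.2 and 3.6 per 100 bases. The ALDH1B1 stretch held 19 in 212 bases, or 8.96 per 100 bases, where the median over 35116 RefSeq promoters was 4.4. Motifs were searched on both strands in the 250 bases before each RefSeq start of the 8 matched genes, 11 starts in all, including bases inside the gene as deposited. The SMAD box, searched as CAGAC, was in 38% of all promoters, the aryl hydrocarbon receptor core GCGTG in 32.2% and the antioxidant response core TGACNNNGC in 10.9%. The 250 bases before the ALDH1B1 start and before the ALDH3A2 and ALDH3B1 starts shown held none of the 3. A further ALDH3B1 start, at chromosome 11 position 68010327, had 1 SMAD box, and a further ALDH3A2 start, at chromosome 17 position 19648751, had 1 receptor core. Among the other genes, ALDH7A1 had 2 SMAD boxes, neither wholly outside the gene as deposited, ALDH1A3 had 2 receptor cores, and ALDH1A2 had 1 SMAD box at a first start and 1 receptor core at another. ALDH1A1 and ALDH9A1 had none of the 3. A match is a description of letters only.

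Libraries held 37205862 to 47314515 counted reads with TGF-beta and 39971568 to 54160521 with vehicle. Vehicle replicate 1 stood apart, differing from vehicle replicates 2 and 3 by a chi-square of 23.5 and 26 per degree of freedom, where TGF-beta libraries differed by 2.5 to 4.7 and vehicle replicates 2 and 3 by 2.89. The treatment was visible in SMAD7, a standard TGF-beta target, with 73.1 ± 3.09 CPM in TGF-beta and 13.1 ± 2.45 CPM in vehicle cells (mean ± SD, n = 3; CPM are TMM-scaled reads per 1e6). Of 8 cholangiocyte markers, KRT7, KRT8, KRT18 and KRT19 were abundant and CFTR was at 0 in every library, so the line carries the keratins but not every defining marker. KRT7 had 2966 ± 153 CPM in TGF-beta and 1538 ± 169 CPM in vehicle cells, and KRT19 had 289 ± 20.8 and 326 ± 94.6 CPM. SOX9, a bile duct transcription factor, had 6.21 ± 0.259 CPM in TGF-beta and 20.9 ± 4.99 CPM in vehicle cells, and EPCAM 9.62 ± 0.184 and 13.5 ± 2.1 CPM. The 8 summed to 5560 to 6060 CPM with TGF-beta and 3810 to 4070 CPM with vehicle. The summed fibroblast markers were 4990 to 5720 CPM with TGF-beta and 1680 to 1870 CPM with vehicle. They were mostly COL1A1, at 5116 ± 360 and 1611 ± 85.6 CPM. Of these markers 3 of 6 rose (COL1A1, PDGFRB, THY1), PDGFRA fell, DCN was below 1 CPM and LUM was at 0 in all TGF-beta libraries. Their part in the results below was not tested. Summed hepatocyte markers (77.9 to 80.2 and 65.5 to 79.4 CPM) were mostly SERPINA1, which rose to 72.8 ± 1.08 CPM with TGF-beta against 60.7 ± 1.7 CPM with vehicle. APOB had 5.7 ± 0.62 and 9.93 ± 8.8 CPM, with 20.1 CPM in vehicle library 1, and ALB, APOA1 and TTR stayed below 0.1 CPM. Summed endothelial markers (10 to 11.5 and 19.3 to 23.8 CPM) were mostly KDR, and summed immune markers (11.3 to 13 and 15.4 to 15.6 CPM) were mostly CD68, at 9.65 ± 0.749 and 9.95 ± 0.832 CPM. CD14 fell to 2.49 ± 0.163 CPM with TGF-beta against 5.52 ± 0.983 CPM with vehicle, and PTPRC and CD3E were at 0 with TGF-beta.

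The ALDH3 genes stood far below their vehicle level in cells given TGF-beta, ALDH7A1 and ALDH9A1 stood modestly below it, and ALDH1B1, the most abundant member, was level. Of the 10 genes, 9 passed the filter on low counts, and ALDH1A1 did not. In the edgeR quasi-likelihood fit of the whole table, 5 members lay lower past an adjusted p of 0.05, where 20.4% of all 20992 genes tested did, and 1 lay higher, where 19.7% did (40.1% in either direction). The CPM ranges of the conditions did not overlap for 6 lower members (26.9% of all genes) and 1 higher member (25.4%), 52.3% in all. Nothing is read from these counts, because the contrast was in view when the genes were chosen. The median log2 fold change of TGF-beta over vehicle was -0.375 over the 9 members and -0.01 over all genes tested. Scaling by library totals alone moved the median of all genes to -0.14 and turned the whole-table split of 4145 higher and 4278 lower genes into 2698 and 7282, so values with library totals are given beside the smaller differences. In bulk RNA, fewer cells expressing a gene and less RNA per cell cannot be told apart.

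**Figure D1:**
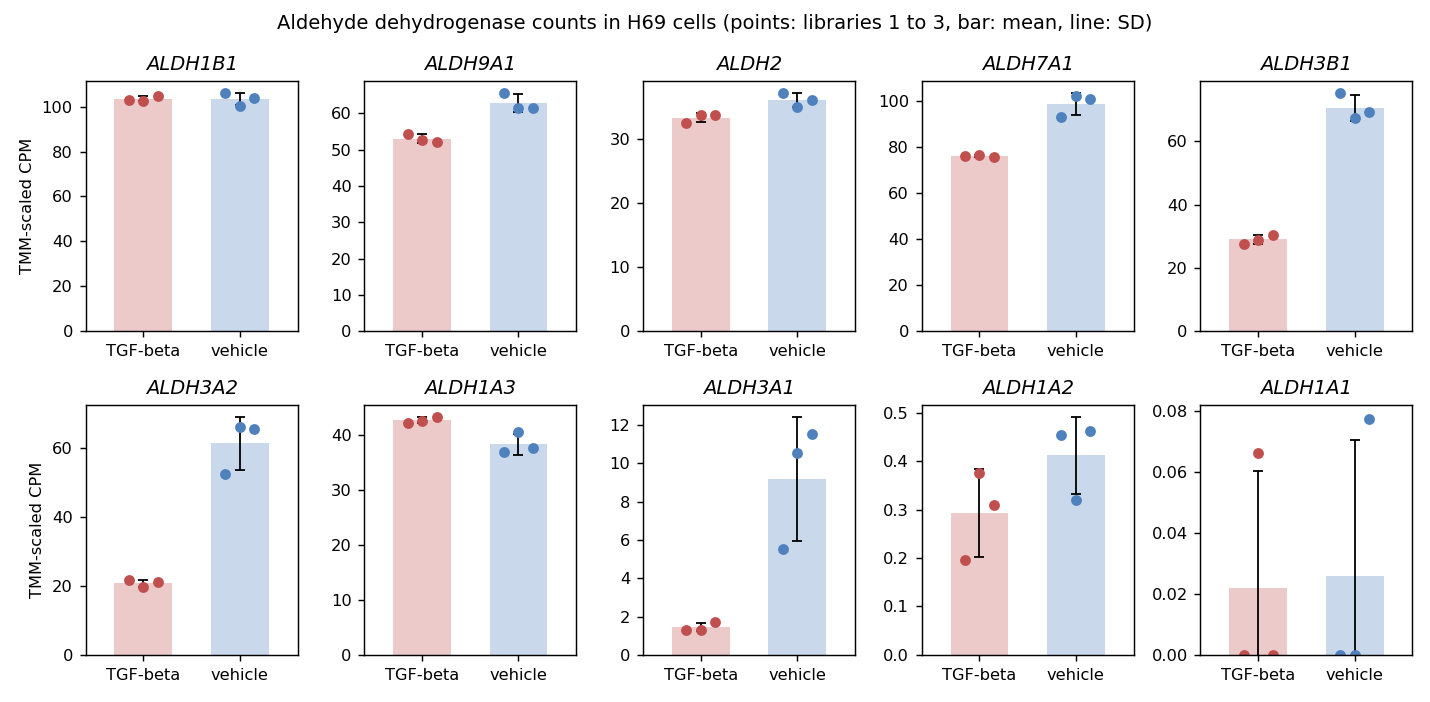
TMM-scaled CPM of the 10 aldehyde dehydrogenases in each library, with TGF-beta libraries left and vehicle libraries right in each panel. Points are libraries 1 to 3, bars are means and lines are SD. ALDH3A1, ALDH3A2 and ALDH3B1 show the widest gaps as folds (for ALDH3A2, 19.7 to 21.6 CPM with TGF-beta and 52.3 to 66.0 CPM with vehicle), while the ALDH1B1 points of the conditions overlap.

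ALDH3A1 (ENSG00000108602; hg38 chromosome 17, 19737984 to 19748943) encodes a cytosolic dehydrogenase of aromatic and medium-chain aldehydes, best known as a major protein of the cornea and as a target of the aryl hydrocarbon receptor. It measured 1.31, 1.32 and 1.70 CPM in TGF-beta libraries 1 to 3, against 5.51, 10.5 and 11.5 CPM in vehicle libraries 1 to 3. The conditions did not overlap, and vehicle library 1 was the lowest of its group by far, at 0.499 of the mean of the other two. The log2 fold change was -2.68 (SE 0.34), which is 0.157 of the vehicle level, and it was -2.93 without vehicle replicate 1. The counts behind it were 47 to 66 reads with TGF-beta and 231 to 599 with vehicle. An antisense transcript inside the gene, RP11-311F12.2, held 8.4% as many reads as ALDH3A1 and had a log2 fold change of -3.40. At a mean of 0.442 CPM over the 6 libraries, it could pass the count filter only through the vehicle libraries. Nothing is therefore read from its direction. No source used here gives the strand setting of the counting, so reads of this transcript and of ALDH3A1 cannot be told apart.

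ALDH3A2 (ENSG00000072210; chromosome 17, 19648136 to 19677598) encodes the fatty aldehyde dehydrogenase of the endoplasmic reticulum, the enzyme lost in Sjögren-Larsson syndrome. Its level was 21.6, 19.7 and 21.0 CPM in TGF-beta libraries 1 to 3 and 52.3, 66.0 and 65.4 CPM in vehicle libraries 1 to 3. Every TGF-beta library lay below every vehicle library, with vehicle library 1 again the lowest of its group. The log2 fold change was -1.56 (SE 0.09), and -1.66 without vehicle replicate 1. The gap between the end of ALDH3A2 and ALDH3A1, 60385 bases wide, holds SLC47A2, a cation transporter gene at 0.092 CPM with TGF-beta and 0.323 CPM with vehicle, with a log2 fold change of -1.77 (SE 0.46). On the far side of ALDH3A1, the autophagy kinase gene ULK2 had a log2 fold change of -0.21 (SE 0.07) and AKAP10 one of -0.15 (SE 0.06). On the other side, the transporter gene SLC47A1 measured -1.37 (SE 0.16) and RNF112 -0.67 (SE 0.18), whereas MFAP4 measured 1.86 (SE 0.17) and SPECC1, beyond AKAP10, 0.94 (SE 0.05). Only protein-coding genes that passed the count filter are given as neighbours. Of these, AKAP10 was not called (edgeR adjusted p = 0.0515), and the median log2 fold change over all genes tested was -0.01. Whether the neighbours differed as a block was not tested. SLC47A2, at 0.092 CPM with TGF-beta, could pass the filter only through the vehicle libraries, so nothing is read from its direction.

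ALDH3B1 (ENSG00000006534; chromosome 11, 68008578 to 68029282) encodes a dehydrogenase of medium- and long-chain aldehydes from lipid peroxidation. It measured 27.7, 28.8 and 30.4 CPM in TGF-beta libraries 1 to 3, against 75.2, 67.2 and 69.1 CPM in vehicle libraries 1 to 3. The groups were well apart, and here vehicle library 1 was the highest of its group, unlike for ALDH3A1 and ALDH3A2. The log2 fold change was -1.28 (SE 0.06), which is 0.411 of the vehicle level. Its paralog ALDH3B2 had 2 to 6 reads in TGF-beta and 8 to 10 reads in vehicle libraries and failed the filter.

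The ratio of the ALDH3 pair on chromosome 17 also differed between conditions. Per length, on the scale of the deposited RPKM (reads scaled to gene length and library total), ALDH3A2 was 9.98, 9.03 and 7.48 times the ALDH3A1 level in TGF-beta libraries 1 to 3 and 5.76, 3.8 and 3.43 times in vehicle libraries 1 to 3. All 3 TGF-beta libraries had the higher ratio, with vehicle library 1 nearest to them.

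Among the retinaldehyde dehydrogenases, ALDH1A3 was the form present in these cells. ALDH1A3 (ENSG00000184254; chromosome 15, 100877714 to 100916626) measured 42.2, 42.6 and 43.3 CPM in TGF-beta libraries 1 to 3, against 36.8, 40.5 and 37.6 CPM in vehicle libraries 1 to 3. Every TGF-beta library was above every vehicle library, by a small margin. The log2 fold change was 0.16 (SE 0.05), and it was 0.03 when libraries were scaled by their totals alone and 0.20 without vehicle replicate 2, the lowest and highest values over the alternatives run. The antisense gene RP11-66B24.4 overlaps it with 54.8% as many reads and had a log2 fold change of 0.13, so the share of each is uncertain.

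ALDH1A2 and ALDH1A1, the other retinaldehyde dehydrogenases, were scarce. ALDH1A2 (ENSG00000128918; chromosome 15, 57953424 to 58497866) had 7, 17 and 12 reads in TGF-beta libraries 1 to 3 and 19, 18 and 24 reads in vehicle libraries 1 to 3. After scaling the groups overlapped, and the log2 fold change of -0.45 carried an SE of 0.31. LIPC, which overlaps it, held 107% as many reads and had a log2 fold change of 1.41, so even this level is uncertain. ALDH1A1 (ENSG00000165092; chromosome 9, 72900662 to 73080442), which is used as a stem cell marker in many epithelia, had 3 reads in TGF-beta library 2, 4 reads in vehicle library 3 and 0 reads in the other 4 libraries. A count of 0 allows up to 3 reads, or 0.0534 to 0.084 CPM in these libraries, by counting error alone, so no fold is given.

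The mitochondrial acetaldehyde dehydrogenases were level or slightly lower. ALDH1B1 (ENSG00000137124; chromosome 9, 38392664 to 38398661) measured 103.0, 102.7 and 104.9 CPM in TGF-beta libraries 1 to 3, against 105.9, 100.4 and 103.7 CPM in vehicle libraries 1 to 3. The ranges overlapped, with a log2 fold change of 0.00 (SE 0.04) that was -0.12 with library totals alone. ALDH2 (ENSG00000111275; chromosome 12, 111766887 to 111809985), the main enzyme of acetaldehyde oxidation after ethanol, measured 32.5, 33.7 and 33.8 CPM in TGF-beta libraries 1 to 3 and 37.2, 35.0 and 36.1 CPM in vehicle libraries 1 to 3. Its groups did not overlap, and the log2 fold change was -0.11 (SE 0.05), or -0.24 with library totals alone. The overlapping gene RP11-162P23.2 held 36.7% as many reads as ALDH2 and measured -0.12.

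ALDH7A1 and ALDH9A1 were both modestly lower. ALDH7A1 (ENSG00000164904; chromosome 5, 126541841 to 126595418), the antiquitin of lysine breakdown, measured 75.9, 76.4 and 75.7 CPM in TGF-beta libraries 1 to 3 and 92.9, 102.0 and 100.6 CPM in vehicle libraries 1 to 3. The TGF-beta libraries lay tightly together below all vehicle libraries, with a log2 fold change of -0.375 (SE 0.05), or -0.50 with library totals alone. Its pseudogene ALDH7A1P1 held 58 to 64 reads with TGF-beta and 76 to 118 with vehicle, against 2711 to 3462 and 3896 to 5732 for ALDH7A1. ALDH9A1 (ENSG00000143149; chromosome 1, 165662216 to 165698863), the enzyme of aminobutyraldehyde and trimethylaminobutyraldehyde, measured 54.3, 52.7 and 52.0 CPM in TGF-beta libraries 1 to 3 and 65.6, 61.5 and 61.4 CPM in vehicle libraries 1 to 3. These groups did not overlap either, with a log2 fold change of -0.25 (SE 0.05), or -0.37 with library totals alone. A Y_RNA row inside it held 5.74% as many reads.

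Ordered per length by deposited RPKM, ALDH1B1 was the highest family gene in each condition, at 13.9 ± 0.0967 RPKM with TGF-beta and 14.8 ± 0.45 RPKM with vehicle (SD, n = 3). In TGF-beta cells the members then ran ALDH9A1 (6.62 RPKM), ALDH2 (6.33 RPKM), ALDH7A1 (4.54 RPKM), ALDH1A3 (3.05 RPKM), ALDH3B1 (1.81 RPKM), ALDH3A2 (1.33 RPKM) and ALDH3A1 (0.153 RPKM), each range clear of the next. In vehicle cells the order was ALDH9A1 (8.33 RPKM), ALDH2 (7.28 RPKM), ALDH7A1 (6.25 RPKM), ALDH3B1 (4.67 RPKM), ALDH3A2 (4.16 RPKM), ALDH1A3 (2.91 RPKM) and ALDH3A1 (1.03 RPKM), and only ALDH3B1 and ALDH3A2 overlapped in range. ALDH1A3 therefore stood above ALDH3B1 and ALDH3A2 with TGF-beta and below both with vehicle. ALDH1A2 and ALDH1A1 closed the order in both, at 0.0141 and 0.00321 RPKM with TGF-beta and 0.021 and 0.00397 RPKM with vehicle. In mean RPKM over the 6 libraries, ALDH1B1 was at percentile 92.5 of all genes tested, ALDH3A1 at 31.7 and ALDH1A2 at 0.686.

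The 10 genes together summed to 37.7, 37.8 and 37.9 RPKM in TGF-beta libraries 1 to 3, against 49.3, 49.0 and 50.0 RPKM in vehicle libraries 1 to 3. ALDH3 genes made up 8.7 ± 0.257% of this sum with TGF-beta and 19.9 ± 1.16% with vehicle (mean ± SD, n = 3). The shares of ALDH1B1 were 36.9 ± 0.2% and 29.9 ± 0.808%, and those of the ALDH1A genes 8.13 ± 0.0751% and 5.94 ± 0.297%. On the TMM scale the sum was 360 ± 2.7 CPM with TGF-beta and 480 ± 7.5 CPM with vehicle, a log2 ratio of -0.42, which was -0.54 with library totals alone.

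**Figure D2:**
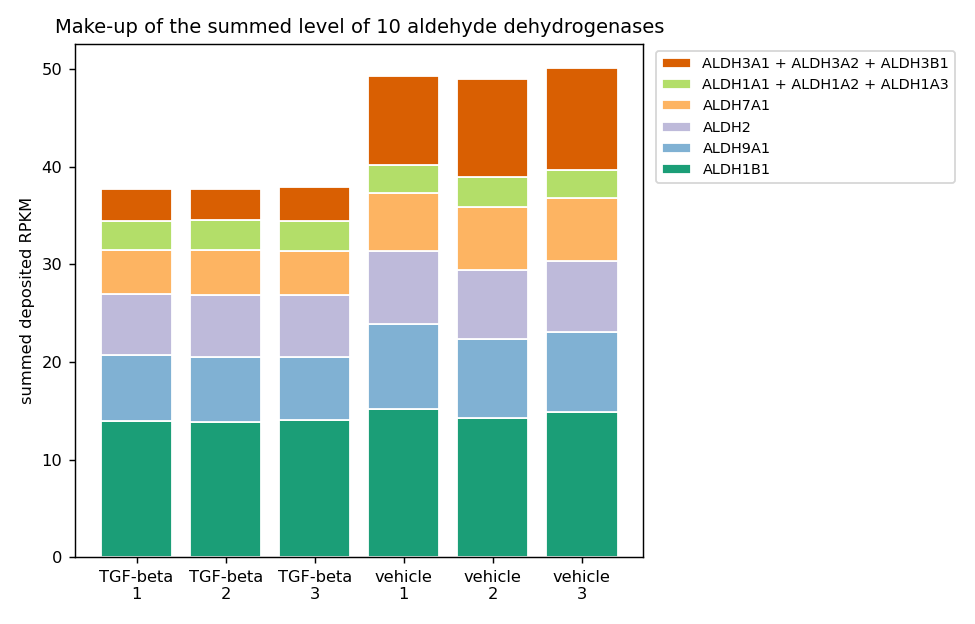
Summed deposited RPKM of the 10 aldehyde dehydrogenases in each library, TGF-beta left and vehicle right, split by gene or subfamily. The topmost block, the ALDH3 genes, is 8.48 to 8.98% of the bar in TGF-beta and 18.6 to 20.7% in vehicle libraries, while the ALDH1B1 block at the base is 13.9 to 14.1 RPKM and 14.3 to 15.2 RPKM tall.

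The other 9 genes of the family were listed from general knowledge of the pathway, and 7 of them passed the filter. By edgeR's quasi-likelihood test, adjusted over the whole table, 4 of these fell (20.4% of all genes tested did) and 2 rose (19.7%), and their median log2 fold change was -0.23. ALDH6A1, the methylmalonate semialdehyde dehydrogenase of valine breakdown, fell to 19.0, 20.5 and 18.9 CPM in TGF-beta libraries 1 to 3, against 32.6, 33.4 and 33.8 CPM in vehicle libraries 1 to 3, a log2 fold change of -0.77 (SE 0.06; edgeR adjusted p = 1.91e-06). ALDH5A1, the succinate semialdehyde dehydrogenase of GABA breakdown, fell by 0.85 (SE 0.16) and ALDH1L1, the cytosolic formyltetrahydrofolate dehydrogenase, by 0.83 (SE 0.15), both from scarce counts of 46 to 87 reads with TGF-beta and 82 to 200 reads with vehicle. ALDH4A1, which acts in proline breakdown, fell by 0.23 (SE 0.06), with an edgeR adjusted p of 0.0736 without TGF-beta replicate 2 and 0.0518 without vehicle replicate 3.

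The family genes that rose were ALDH1L2 and ALDH18A1. ALDH1L2, the mitochondrial formyltetrahydrofolate dehydrogenase, rose to 19.1, 18.6 and 17.6 CPM in TGF-beta libraries 1 to 3, against 13.9, 11.3 and 11.4 CPM in vehicle libraries 1 to 3, a log2 fold change of 0.60 (SE 0.09; edgeR adjusted p = 0.000317). ALDH18A1, the synthase that makes the proline precursor from glutamate, rose by 0.26 (SE 0.05; edgeR adjusted p = 0.00179). ALDH16A1 measured 62.9 ± 4.11 CPM with TGF-beta and 59.9 ± 3.7 CPM with vehicle and was not called. ALDH3B2 and ALDH8A1 had at most 11 reads in any library and were not tested. Several of these genes overlap others: PIH1D1 lies over ALDH16A1 with 119% as many reads, RP13-279N23.2 over ALDH4A1 with 71.1%, GPLD1 over ALDH5A1 with 138%, C12orf45 over ALDH1L2 with 38.1% and CCDC176 over ALDH6A1 with 25.7%.

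**Figure D3:**
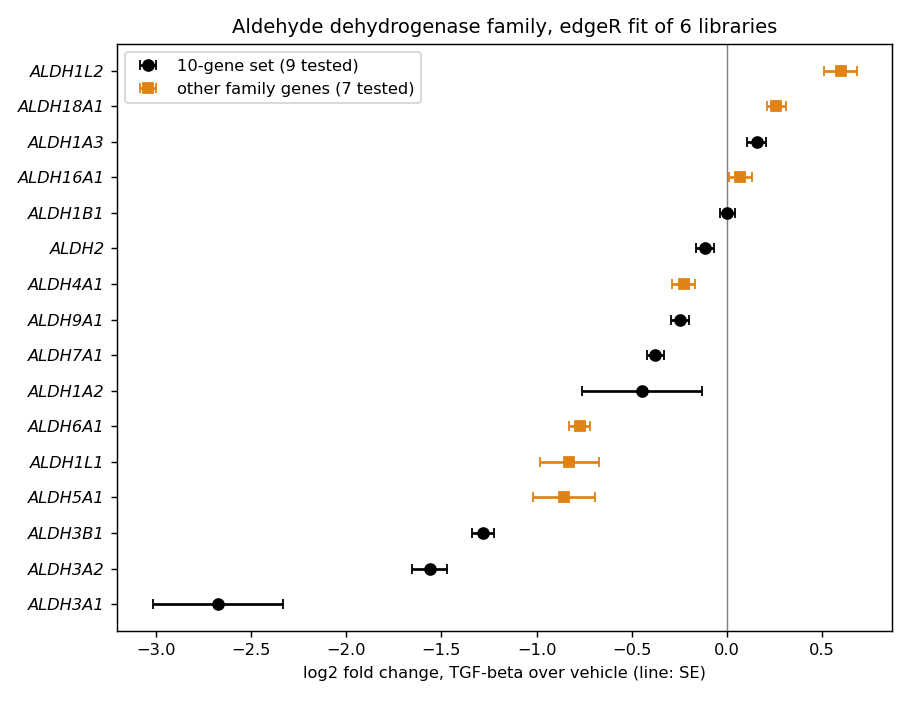
Log2 fold change of TGF-beta over vehicle (x axis; lines are SE) for the 16 family genes that passed the count filter, from the edgeR fit of 6 libraries. Round points are genes of the 10-gene set and squares the other family genes, with ALDH3A1 at -2.68 at the bottom and ALDH1L2 at 0.60 at the top.

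Genes that supply and break down retinoids moved in both directions around the near-level ALDH1A3. Of 19 tested members of 22 listed, 5 rose (19.7% of all genes tested did) and 6 fell (20.4%) by edgeR's quasi-likelihood test. The median log2 fold change was -0.12. CYP26B1, a cytochrome that breaks down retinoic acid, fell to 3.67, 3.57 and 3.87 CPM in TGF-beta libraries 1 to 3, against 8.01, 9.68 and 9.64 CPM in vehicle libraries 1 to 3 (log2 -1.30, SE 0.10). SDR16C5, a retinol dehydrogenase, fell by 2.82 (SE 0.40), at 0.828 ± 0.156 CPM with TGF-beta and 5.75 ± 2.26 CPM with vehicle. DHRS3, which reduces retinaldehyde back to retinol, rose by 1.69 (SE 0.41) with an edgeR adjusted p of 0.0307. Its vehicle library 1 stood at 8.40 CPM against 3.70 and 3.14 CPM in libraries 2 and 3, and its edgeR adjusted p was 0.0676 to 0.0941 without any 1 library other than vehicle replicate 1, and 0.0702 with no filter on low counts. Leaving out vehicle replicate 1 gave 7 rising members, and leaving out any other library gave 3.

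Among retinoic acid receptors and targets, 4 of 11 tested members of 14 listed rose (19.7% of all genes tested did) and 4 fell (20.4%). Their median log2 fold change was 0.15. RARA, a retinoic acid receptor, rose to 107.4, 113.3 and 113.2 CPM in TGF-beta libraries 1 to 3, against 35.5, 40.5 and 38.1 CPM in vehicle libraries 1 to 3 (log2 1.55, SE 0.06; edgeR adjusted p = 1.37e-08). TGM2, a transglutaminase gene induced by retinoic acid and by TGF-beta, rose by 1.10 (SE 0.12). RARRES3, a retinoid-responsive gene of phospholipid metabolism, fell by 0.81 (SE 0.06), and MEIS2, a homeobox gene, fell by 0.50 (SE 0.08). RARB, a textbook retinoic acid target, failed the count filter, as did CYP26A1.

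Genes listed for ethanol oxidation, including those that use the acetate it yields, were mostly silent. Of 11 listed genes 4 were tested, and 3 fell (20.4% of all genes tested did) and 0 rose (19.7%). The rises were 0 by DESeq2 too, and none was higher at an unadjusted p, as all 4 log2 fold changes lay below 0. The alcohol dehydrogenase genes ADH1A, ADH1B, ADH1C, ADH4, ADH6 and ADH7 and the ethanol-oxidising cytochrome gene CYP2E1 failed the filter, while ADH5, the formaldehyde-clearing form, measured 102.3 ± 0.984 CPM with TGF-beta and 104.3 ± 1.06 CPM with vehicle and was not called. ACSS1, the mitochondrial acetyl-CoA synthetase that uses the acetate made by ALDH2, fell to 8.56, 7.81 and 9.08 CPM in TGF-beta libraries 1 to 3, against 77.4, 36.6 and 38.0 CPM in vehicle libraries 1 to 3. Vehicle library 1 was the highest, and the log2 fold change was -2.58 (SE 0.40), or -2.14 without that library. CAT, the catalase gene, fell by 0.40 (SE 0.05).

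Enzymes that clear aldehydes by other routes fell in 7 and rose in 2 of 13 tested members (16 listed), with a median log2 fold change of -0.19, where 20.4% of all genes tested fell and 19.7% rose. AKR1B10, an aldose reductase relative that reduces retinaldehyde, fell to 0.637 ± 0.141 CPM with TGF-beta against 2.01 ± 0.147 CPM with vehicle (log2 -1.66, SE 0.19), and the carbonyl reductase gene CBR3 fell by 0.78 (SE 0.11). AOX1, aldehyde oxidase, rose by 0.95 (SE 0.27) with an edgeR adjusted p of 0.0488, at 255.1, 237.7 and 239.5 CPM in TGF-beta libraries 1 to 3 and 176.7, 105.5 and 97.1 CPM in vehicle libraries 1 to 3. GSTA4, a glutathione transferase of lipid aldehydes, rose by 0.26 (SE 0.08) with an edgeR adjusted p of 0.0345. The count of rises was 0 with library totals alone, with no filter, and without TGF-beta replicate 1 or 2 or vehicle replicate 2 or 3. It was 1 without TGF-beta replicate 3. The AKR1C genes are near-identical copies, so their separate counts are uncertain.

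Genes listed for the pathways around substrates of the members also moved in both directions, and not all of their products make an aldehyde. Of 10 tested genes of amine, choline and lysine oxidation (14 listed), 2 rose (19.7% of all genes tested did) and 3 fell (20.4%). Their median log2 fold change was -0.02. The spermine oxidase gene SMOX rose by 1.44 (SE 0.11) and the polyamine acetyltransferase gene SAT1 by 0.40 (SE 0.05). The monoamine oxidase gene MAOA fell by 1.30 (SE 0.24). Its vehicle library 1 stood at 102.1 CPM against 63.2 and 61.2 CPM in libraries 2 and 3, with 29.9 to 32.0 CPM in TGF-beta libraries. AASS, the enzyme that opens the lysine pathway in which ALDH7A1 acts, fell by 0.91 (SE 0.06). In the list named fatty aldehyde sources, 4 of 7 tested genes (8 listed) rose (19.7% of all genes tested did) and 1 fell (20.4%). Their median log2 fold change was 0.15. SGPL1, the sphingosine phosphate lyase whose fatty aldehyde product is a substrate of ALDH3A2, rose to 151.4, 157.4 and 152.2 CPM in TGF-beta libraries 1 to 3, against 83.9, 76.8 and 76.7 CPM in vehicle libraries 1 to 3 (log2 0.96, SE 0.05; edgeR adjusted p = 1.43e-07). TMEM189, a plasmalogen synthesis gene, rose by 0.66 (SE 0.06). HACL1, a peroxisomal lyase, fell by 0.14 (SE 0.05) at an edgeR adjusted p of 0.0499, which was 0.0526 to 0.138 with the replicate block, RLE factors, no filter or DESeq2, and 0.0679 to 0.229 without any 1 library other than vehicle replicate 1.

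ALDH3A1 is a classical target of the aryl hydrocarbon receptor in human and mouse cells. In this receptor's axis, 3 of 7 tested members (8 listed) fell and 1 rose, where 20.4% of all genes tested fell and 19.7% rose. The median log2 fold change was -0.32. AHR, the receptor, fell to 90.1, 89.8 and 88.7 CPM in TGF-beta libraries 1 to 3, against 220.9, 186.5 and 182.9 CPM in vehicle libraries 1 to 3 (log2 -1.14, SE 0.07; edgeR adjusted p = 9.35e-07). CYP1B1, a cytochrome induced by the receptor, fell by 0.71 (SE 0.12), and ARNT, the receptor's partner, rose by 0.30 (SE 0.05). Other genes induced by the receptor were not called, with log2 fold changes of -0.26 (SE 0.21) for CYP1A1 and 0.08 (SE 0.06) for TIPARP. AHRR, the receptor's repressor, fell by 0.32 (SE 0.12) at an edgeR adjusted p of 0.0493. The falls in this list were 2 with RLE factors, with the replicate block, or without any 1 library other than TGF-beta replicate 1 or vehicle replicate 1. NQO1, a quinone reductase induced by this receptor and by NRF2, measured 53.7, 53.9 and 56.9 CPM in TGF-beta libraries 1 to 3 and 63.9, 105.8 and 109.4 CPM in vehicle libraries 1 to 3, and was not called (edgeR adjusted p = 0.0579). Vehicle library 1 was the lowest of its group for NQO1, CYP1A1 and AHRR, as for ALDH3A1. It was the highest for AHR, CYP1B1, ARNT and TIPARP.

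**Figure D4:**
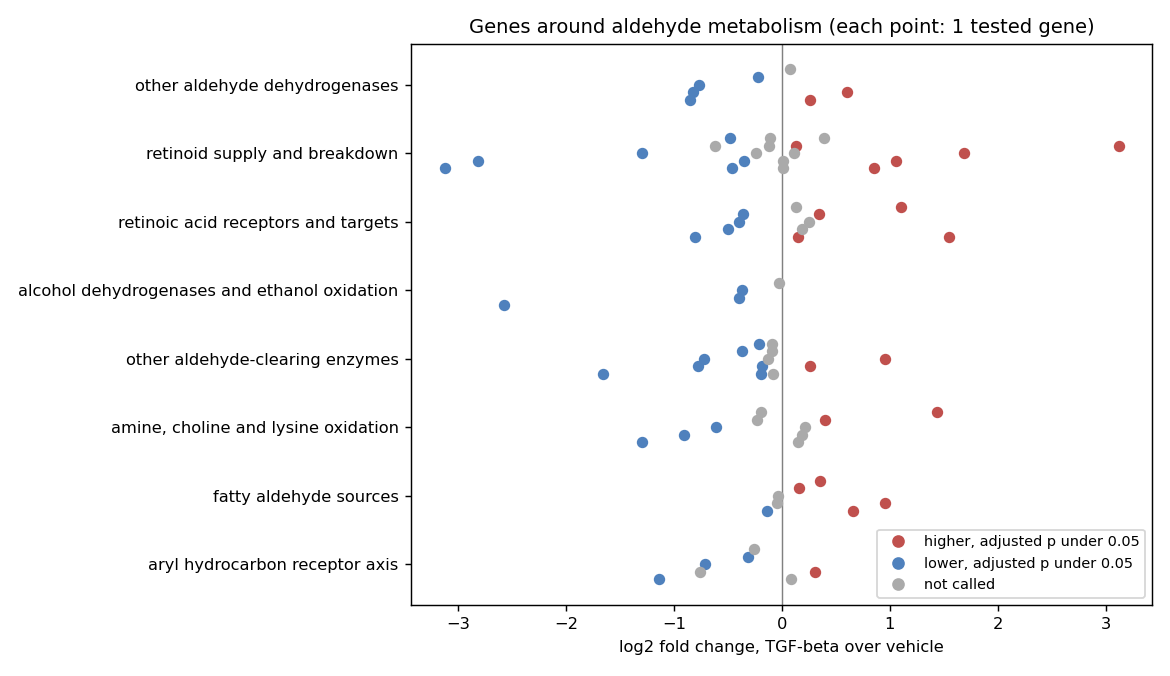
Log2 fold change of TGF-beta over vehicle for every tested gene of the 8 lists around aldehyde metabolism, with each point a gene and colour giving the call of edgeR's quasi-likelihood test. No list lies wholly on the side of higher genes, and the list of alcohol dehydrogenases and ethanol oxidation lies wholly below 0, from ACSS1 at -2.58 to ADH5 at -0.03.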

How the data were processed

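RNA sequencing of 6 H69 libraries was analysed from 1 deposited table of 64253 rows. Per the submitters' processing notes, the tools were bcl2fastq, STAR 2.6.1 and featureCounts of Subread, with build hg38. Counts are raw whole-number reads for each gene, as the authors deposited them. The RPKM columns hold, per the file headers, RPKM by the authors, and from the values their library total is larger than the counts in the table (41.9 to 43.3% of it). Strand setting, handling of multi-mapped reads and annotation release are not given in the sources used here.

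Counts were fitted in R 4.3.3 with edgeR 4.0.16 (TMM scaling, filterByExpr with a minimum count of 10, robust quasi-likelihood test), with Benjamini-Hochberg adjustment over 20992 genes and calls at an adjusted p under 0.05. SE was derived from the F statistic, as the absolute log2 fold change over its square root. After scaling, 1 CPM is 35.7 to 56.2 reads. The main edgeR fit, the DESeq2 fit and the limma fit with 0.1 added were tested on simulated counts. Alternatives were RLE factors, library totals, 2 other filters, DESeq2 1.42.0, limma 3.58.1 on log2(RPKM + 1) and log2(RPKM + 0.1), where the log2 scale was computed from the deposited RPKM, the replicate number as a block, and each library left out. No set test was run. The members, lists and rules were chosen with earlier results of these data known. Named genes are all members, tested family genes, and for each other list the 2 called genes with the largest rise and the 2 with the largest fall at a mean of at least 1 CPM, with KRT7, KRT19 and SMAD7 among the checks. Some genes this rule selects are not reported here. Genes given for being silent, for overlapping a member or for lying beside it, and NQO1, CYP1A1, TIPARP, AHRR, ADH5, the other markers, RARB and CYP26A1, were named after their values were seen. Promoters are from RefSeq, GRCh38.p14, the same build as hg38.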

Additional observations from a re-analysis of the deposited data

How the results depend on the processing

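The 5 lower calls among the members were 5 to 7 under every alternative run, and the count of 1 higher was 0 with library totals alone, DESeq2 or limma on RPKM, and 0 to 1 with a library left out. The members' median log2 fold change of -0.375 was -0.50 with library totals alone, -0.31 with no filter or with at least 1 CPM in 3 libraries, and -0.377 to -0.26 with a library left out. ALDH3A1, ALDH3A2 and ALDH3B1 stayed below 0 in every alternative, from -0.80 for ALDH3A1 on log2(RPKM + 1), a scale that shrinks low genes by construction, to -2.93. The summed level's log2 ratio of -0.42 was -0.54 with library totals alone and -0.39 on deposited RPKM. Over the whole table, higher calls were 2698 (lower 7282) with library totals alone and 2406 and 2402 on log2(RPKM + 1) and log2(RPKM + 0.1), where fewer genes were tested, against 4145 higher and 4278 lower. A library left out gave 3204 to 5428 higher and 3055 to 5556 lower.

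On both RPKM scales, other aldehyde dehydrogenases fell in 2 genes, retinoid supply genes rose in 3, and aldehyde-clearing enzymes rose in 1. That last count was also 1 by DESeq2, 0 with library totals alone or no filter, and 0 to 2 with a library left out. The fall among fatty aldehyde sources was 0 with RLE factors, no filter, DESeq2 or the replicate block, and 0 to 1 with a library left out. Rises among retinoid supply genes were 3 to 7 and in the aryl hydrocarbon receptor axis 1 to 2 with a library left out. Falls in that axis were 2 with RLE factors or the replicate block, 4 with library totals alone, and 2 to 4 with a library left out. Where not given otherwise, the cause was not tested. Deviations of same-numbered libraries correlated at 0.105, 0.053 and 0.073, against -0.109 to 0.068 for differently numbered ones. Strong pairing by replicate number was not seen, and weak pairing is not excluded. Of the genes named by the stated rule, DHRS3 (adjusted p = 0.0547 by edgeR) and HACL1 (0.0526) lost their call with the replicate block. AHRR is not among the genes of that rule. Depth limits ALDH1A1, with at most 4 reads in a library, and ALDH1A2, with 7 to 24.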
